A study of Mus musculus with 6 samples.

Results

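The Nr4a orphan nuclear receptors Nr4a1, Nr4a2 and Nr4a3 were followed in the hippocampus of mice given the antidepressant venlafaxine. The 3 genes are those of the family listed by symbol. Their values were read from the 10 probe sets, of 45101 on the array, whose platform annotation gives that symbol alone: 1 for Nr4a1, 6 for Nr4a2 and 3 for Nr4a3. They are 3 of 18193 genes with a probe set of their own, and each is represented by its brightest probe set on average, with the others as a check. Venlafaxine blocks the reuptake of serotonin and noradrenaline, and the study compared doses of it. Male DBA/2 mice, an inbred strain, were housed singly and drank water with 0 mg (control), 30 mg (low dose) or 100 mg (high dose) of venlafaxine per kg body weight and day for 30 days, 10 animals to a dose group. The unit of the dose is that of the growth protocol, while the dose tag and the design text write it differently, the text without body weight. The age of the animals is not given here. Within a group, RNA from left hippocampi formed 1 pool and RNA from right hippocampi another, and an Affymetrix mouse genome array was run on each, so that every dose group has 2 arrays. High dose replicate 1, both low dose arrays and control replicate 1 were hybridized on a first date, and replicate 2 of high dose and of control on a later one. The right pools are high dose replicate 2, low dose replicate 1 and control replicate 1, and the remaining arrays are left pools. The sources do not say that left and right pools came from different brains, so p-values here measure the spread between pools, which may be technical.

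Nr4a receptors are transcription factors of the nuclear receptor superfamily that act without a known physiological ligand, so that the amount of the protein largely sets their activity. Their genes are immediate early genes: in neurons, calcium entry and cyclic AMP switch on their transcription within minutes to hours, through CREB and MEF2 factors, and the transcripts are short-lived. The proteins bind the NBRE element as monomers, and Nr4a1 and Nr4a2 also pair with retinoid X receptors. In the mouse hippocampus the family is known for its part in long-term memory, and Nr4a2 is needed for the development of midbrain dopamine neurons.

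The promoters are shown because CREB is the best-known activator of these genes and binds the cyclic AMP response element (CRE). The annotated genes lie, in build GRCm38.p6, on chromosome 15 from 101253902 to 101274795 (Nr4a1), on chromosome 2 from 57106830 to 57124003 (Nr4a2) and on chromosome 4 from 48045078 to 48086447 (Nr4a3). The RefSeq promoter table holds all 3, and the 250 bases before the transcript start are printed 5′ to 3′ on the gene's strand, with each core site of the CRE (TGACG on either strand, read as CGTCA on the opposite one) in capitals. The window of Nr4a1 is chr15:101266596-101266845 on the plus strand and lies within the annotated gene, before a start site downstream of its first base. That of Nr4a2 is chr2:57124004-57124253 on the minus strand, and that of Nr4a3 is chr4:48045055-48045304 on the plus strand, most of it within the annotated gene.
Nr4a1: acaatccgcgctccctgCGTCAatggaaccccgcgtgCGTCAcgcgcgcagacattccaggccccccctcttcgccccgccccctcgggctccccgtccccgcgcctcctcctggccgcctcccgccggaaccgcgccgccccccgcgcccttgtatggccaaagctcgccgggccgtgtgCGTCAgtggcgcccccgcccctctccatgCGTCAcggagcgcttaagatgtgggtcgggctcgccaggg
Nr4a2: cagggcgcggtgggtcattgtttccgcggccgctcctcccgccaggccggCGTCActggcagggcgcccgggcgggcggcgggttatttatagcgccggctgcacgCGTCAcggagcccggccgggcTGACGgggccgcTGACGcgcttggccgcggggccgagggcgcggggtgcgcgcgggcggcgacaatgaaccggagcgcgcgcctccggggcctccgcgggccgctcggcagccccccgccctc
Nr4a3: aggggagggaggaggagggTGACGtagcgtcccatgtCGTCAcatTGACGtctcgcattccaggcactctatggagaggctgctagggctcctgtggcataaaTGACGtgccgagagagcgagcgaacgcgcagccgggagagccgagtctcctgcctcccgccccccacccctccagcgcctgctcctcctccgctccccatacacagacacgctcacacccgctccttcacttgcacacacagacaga
Each of the 3 windows held 4 core sites, whereas 0.14% of 32851 RefSeq promoter windows of the same length held at least 4 and 17.77% held at least 1. In Nr4a1 they began at bases -233, -213, -69 and -40 from the start, in Nr4a2 at -200, -144, -123 and -111, and in Nr4a3 at -231, -213, -205 and -147. The full CRE palindrome TGACGTCA, present in 1.55% of windows, was in none of the 3. The family's own NBRE element AAAGGTCA (1.34% of windows), the Egr site GCGTGGGCG (0.54%) and the CArG site of serum response factor (1.47%) were not matched either, on either strand. A match to the MEF2 site was found in Nr4a2 alone, at bases -167 to -158, against 2.92% of all windows. These matches are descriptions of letters, and base composition differed between the windows, with 74.4% G and C in Nr4a1, 80.0% in Nr4a2 and 63.6% in Nr4a3. The shares above are over all windows and were not matched for base composition, so they do not give the rarity among windows of like composition.

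On arrays of venlafaxine-treated mice, Nr4a1 and Nr4a2 lay below both control arrays, and Nr4a3 did not. Nr4a1, also called Nur77, had log2 expression of 11.16 and 10.98 on the control arrays, 10.52 and 10.52 on the low dose arrays, and 10.69 and 10.43 on the high dose arrays, replicate 1 before replicate 2. Both controls thus stood above all 4 treated arrays, and the low dose arrays differed from each other by less than those of either other group. Nr4a2 had 12.05 and 11.80 on the control arrays, 11.47 and 11.72 on the low dose arrays, and 11.68 and 11.46 on the high dose arrays. Its controls were again the highest, but low dose replicate 2 differed from the lower of them by only -0.085. Nr4a3 had 11.70 and 11.58 on the control arrays, 11.59 and 11.59 on the low dose arrays, and 11.44 and 11.62 on the high dose arrays. Here the groups overlapped, and 1 of the 4 treated arrays lay below both controls. Among the 11739 genes tested, 515 (4.39%) had both control arrays above all 4 treated ones, and Nr4a1 and Nr4a2 are 2 of them. The tissue is bulk RNA, so fewer cells that express a gene and less of its RNA per cell cannot be told apart.

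**Figure D1:**
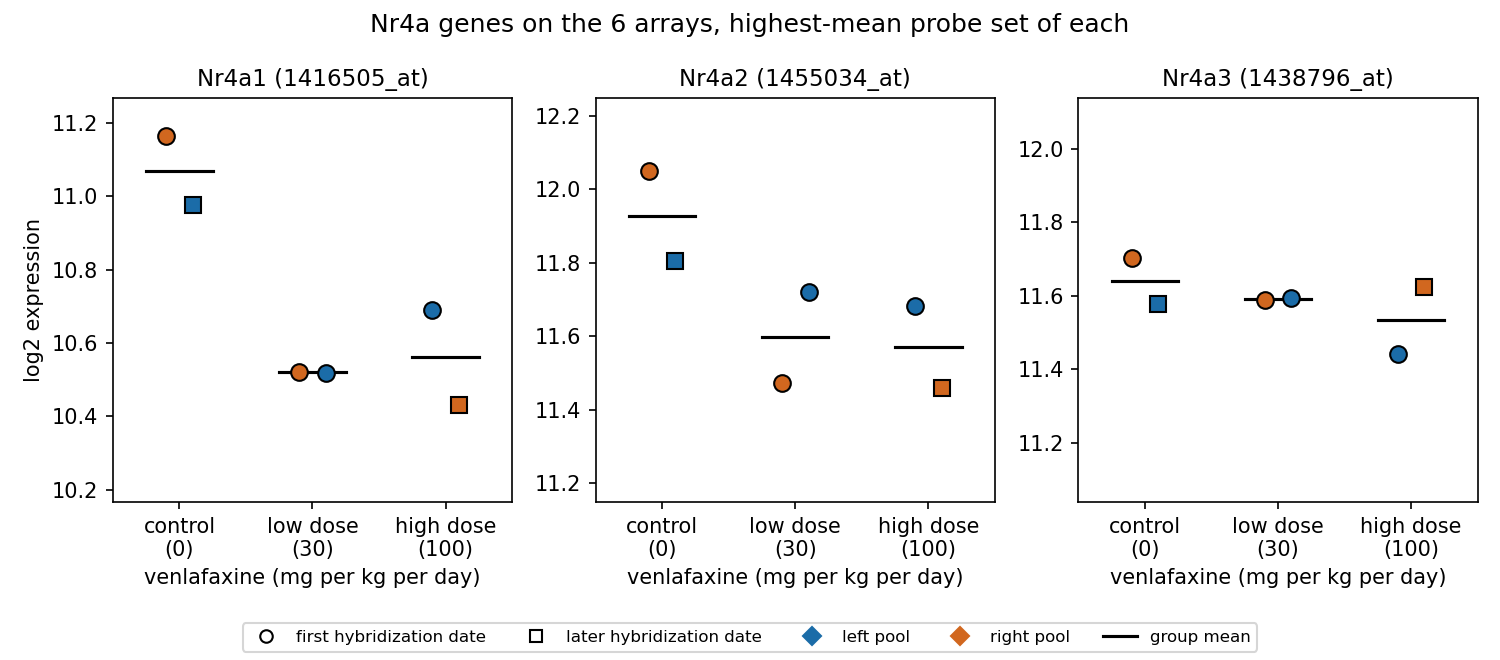
Log2 expression of the highest-mean probe set of each Nr4a gene on each of the 6 arrays, by venlafaxine dose. Points are arrays (circles for the first date, squares for the later, blue for left pools, orange for right pools) and bars are means of 2 arrays; each panel spans the same height on the log2 scale. The control arrays of Nr4a1 (11.16 and 10.98) and of Nr4a2 (12.05 and 11.80) lie above all 4 treated arrays, while those of Nr4a3 (11.70 and 11.58) do not.

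At the high dose, the comparison with untreated mice asked whether the family responds to the largest amount of drug. Nr4a1 averaged 10.56 ± 0.18 on the high dose arrays and 11.07 ± 0.13 on the control arrays (SD, n = 2 each), a log2 fold change of -0.51 (SE 0.11) or 1.42-fold lower. This missed the threshold over all genes (limma with Benjamini-Hochberg adjustment, adjusted p = 0.274). Nr4a2 averaged 11.57 ± 0.16 on the high dose arrays and 11.93 ± 0.17 on the control arrays (SD, n = 2 each). Its log2 fold change was -0.36 (SE 0.12), or 1.28-fold lower, with a limma adjusted p of 1.00. Nr4a3 averaged 11.53 ± 0.13 on the high dose arrays and 11.64 ± 0.089 on the control arrays (SD, n = 2 each), and its log2 fold change of -0.11 had a 95% interval from -0.32 to 0.11 (limma adjusted p = 1.00). Of the 11739 genes tested, 1 passed (0.00852%). It was Egr2, another activity-induced transcription factor, with a log2 fold change of -0.84 (limma adjusted p = 0.00224).

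A shared hybridization date pairs each high dose array with the control array of its number. With the date as a block the fold changes were the same, and Nr4a1 (limma adjusted p = 7.17e-05) and Nr4a2 (0.0336) fell, while Nr4a3 did not pass (0.992). In that fit 41 genes (0.349%) fell. All genes shared 1 estimate of the spread in it, so its p-values order genes by the size of their change. Within the first date the difference of high dose from control was -0.47 for Nr4a1, -0.37 for Nr4a2 and -0.26 for Nr4a3, where the median of all tested genes was -0.085. Within the later date it was -0.54 for Nr4a1, -0.35 for Nr4a2 and 0.047 for Nr4a3, where that median was 0.023. Paired by side, where the arrays differ in date, Nr4a1 differed by -0.29 on the left and -0.73 on the right, and Nr4a2 by -0.12 on the left and -0.59 on the right. Each of these pairs is 1 array against 1 and allows no test. With 1 array left out a group has a lone array, so only sizes are given. The log2 fold change of Nr4a1 was -0.60 without control replicate 2 and -0.42 without control replicate 1. It was -0.64 without high dose replicate 1, -0.38 without high dose replicate 2 and still -0.51 without either low dose array. That of Nr4a2 was -0.48 without control replicate 2 and closest to 0 without control replicate 1 (-0.23).

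At the low dose the same genes were set against the same 2 control arrays, so this comparison is not independent of the one above. Nr4a1 averaged 10.52 ± 0.0014 on the low dose arrays and 11.07 ± 0.13 on the control arrays (SD, n = 2 each), a log2 fold change of -0.55 (SE 0.11) or 1.46-fold lower. It missed the threshold (limma adjusted p = 0.0791), and 5 of the 11739 genes passed (0.0426%), namely Egr2, Egr1, Arc and Fos, which fell, and Avp, which rose. Nr4a2 averaged 11.60 ± 0.17 on the low dose arrays and 11.93 ± 0.17 on the control arrays (SD, n = 2 each), a log2 fold change of -0.33 (SE 0.12, limma adjusted p = 1.00) or 1.26-fold lower. Nr4a3 averaged 11.59 ± 0.0024 on the low dose arrays and 11.64 ± 0.089 on the control arrays (SD, n = 2 each), with a log2 fold change of -0.049 and a 95% interval from -0.26 to 0.17 (limma adjusted p = 1.00).

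With the date as a block, which takes the later control's level from the shift between the dates, Nr4a1 fell by 0.66 on the log2 scale (limma adjusted p = 4.85e-07) and Nr4a2 fell by 0.45 (0.0138), among 16 genes that fell (0.136%). Against the control of their own date, the low dose arrays differed by -0.64 and -0.64 for Nr4a1, by -0.58 and -0.33 for Nr4a2 and by -0.11 and -0.11 for Nr4a3. Both low dose arrays were thus lower than that control in all 3 genes. With 1 array left out the log2 fold change of Nr4a1 was -0.46 without control replicate 1 and -0.64 without control replicate 2. Without either low dose array or either high dose array it stayed at -0.55. Limma shared 1 spread over all genes except in the fits without a low dose array. The p-values of these fits are thus not alike, and only sizes are given.

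The doses were also compared with each other. Nr4a1 had a log2 fold change of 0.040 (95% interval -0.19 to 0.27) for the high over the low dose, Nr4a2 -0.026 (-0.27 to 0.21) and Nr4a3 -0.059 (-0.27 to 0.16). None of the 3 passed (limma adjusted p = 0.972, 0.984 and 0.948), and of all 11739 genes 0 (0%) did, while 728 had an unadjusted p under 0.05. The intervals leave room for differences of up to 0.27 on the log2 scale for Nr4a1 between 30 mg and 100 mg, and the sign for Nr4a2 turned with the date as a block (0.091) and after quantile normalization (0.064).

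**Figure D2:**
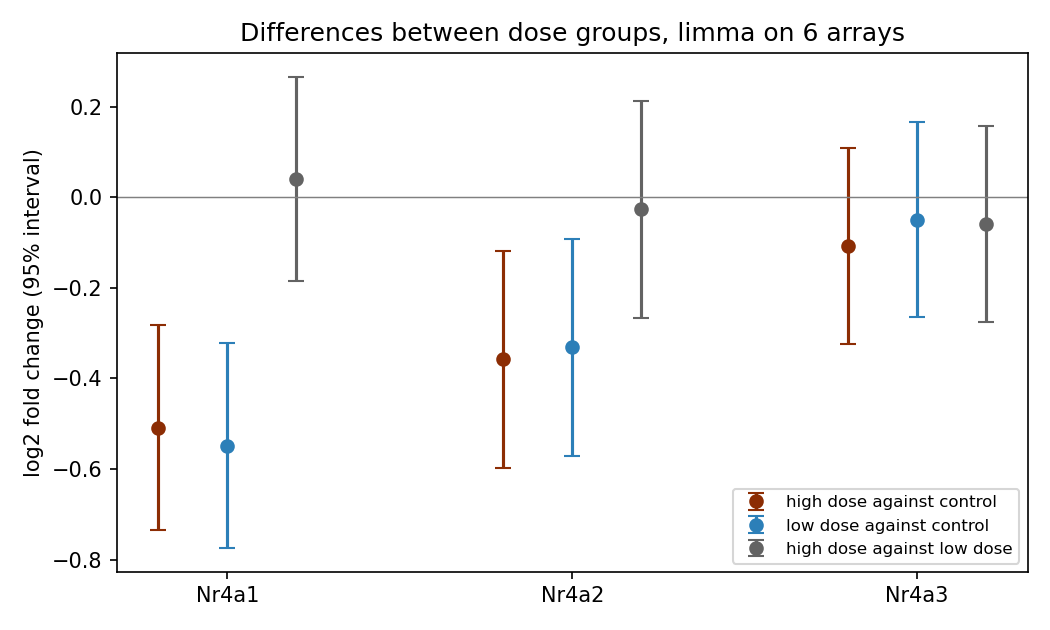
Log2 fold changes of the 3 genes between dose groups, from limma on 6 arrays; points are estimates and bars 95% intervals. For Nr4a1 and Nr4a2 the intervals of both comparisons with control lie below 0 before adjustment over all genes (-0.73 to -0.28 and -0.60 to -0.12 at the high dose), and the intervals between the doses span 0.

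Taken as 4 treated against 2 control arrays, Nr4a1 averaged 10.54 ± 0.11 on treated (SD, n = 4) and 11.07 ± 0.13 on control arrays (SD, n = 2), a difference of -0.53. An exact two-sided permutation test over the 15 ways to choose 4 of 6 arrays gave p = 0.0667, the smallest this design allows. For Nr4a2 the difference was -0.34 (exact permutation p = 0.133) and for Nr4a3 -0.078 (exact permutation p = 0.533). The behaviour of the members was also compared within arrays, a test chosen after their values were seen. The level of Nr4a1 minus that of Nr4a3 averaged -1.02 on treated and -0.57 on control arrays, and the difference of -0.45 had an exact permutation p of 0.0667, again the smallest possible. The same test gave -0.27 for Nr4a2 against Nr4a3 (exact permutation p = 0.200) and -0.18 for Nr4a1 against Nr4a2 (exact permutation p = 0.133). This permutation test could not pass the 0.05 threshold for any pair of members, whatever their values.

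The probe sets of Nr4a2 did not all behave alike. Probe set 1450750_a_at separated the groups most clearly, with 10.30 and 10.29 on the control arrays, 9.73 and 9.83 on the low dose arrays and 9.95 and 9.87 on the high dose arrays. Both controls lay above all 4 treated arrays, the low dose was the lowest, and the highest treated array, high dose replicate 1, differed from the lower control by -0.34. Its log2 fold change was -0.38 at the high dose and -0.52 at the low dose, in a fit of all probe sets without the date. Probe set 1447863_s_at had 10.70 and 11.11 on the control arrays, 10.12 and 10.33 on the low dose arrays and 10.29 and 10.81 on the high dose arrays. Probe set 1450749_a_at had 9.10 and 9.34 on the control arrays, 8.95 and 9.00 on the low dose arrays and 8.94 and 9.19 on the high dose arrays. In both, replicate 2 of control and of high dose, the arrays of the later date, stood highest, and high dose replicate 2 exceeded control replicate 1. Within a date they still had lower values at the high dose than in the control, with differences of -0.41 and -0.30 for 1447863_s_at and of -0.16 and -0.14 for 1450749_a_at on the first and the later date.

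With the date as a block and every probe set tested, an alternative chosen after seeing the data, 3 of the 4 bright Nr4a2 probe sets fell at the high dose (limma adjusted p from 0.0133 to 0.0317) and at the low dose (0.000406 to 0.0136). The fourth, 1450749_a_at, did not (0.836 and 1.00). Of all 23165 probe sets tested in that fit, 108 fell at the high dose and 35 at the low dose. All probe sets shared 1 estimate of the spread in it, so its p-values order them by the size of their change. Probe sets of 1 gene on the same arrays are not independent of each other. Probe sets 1433422_at and 1433423_at were above their array's median on 0 of 6 arrays, and their values varied by 0.15 and 0.12 in all. For Nr4a3, 1421080_at had log2 fold changes of -0.047 at the high dose and -0.062 at the low dose in the fit of all probe sets. Probe set 1421079_at, below the median on every array, had 6.86 and 6.96 on the control arrays, 6.79 and 6.72 on the low dose arrays and 6.84 and 6.73 on the high dose arrays. It too had both controls on top, over a range of 0.24, and was too dim to be tested. Averaged over its 3 probe sets, Nr4a3 differed by -0.092 between treated and control arrays, with no overlap (exact permutation p = 0.0667, the smallest possible). Nr4a1 has a single probe set and no check of this kind.

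**Figure D3:**
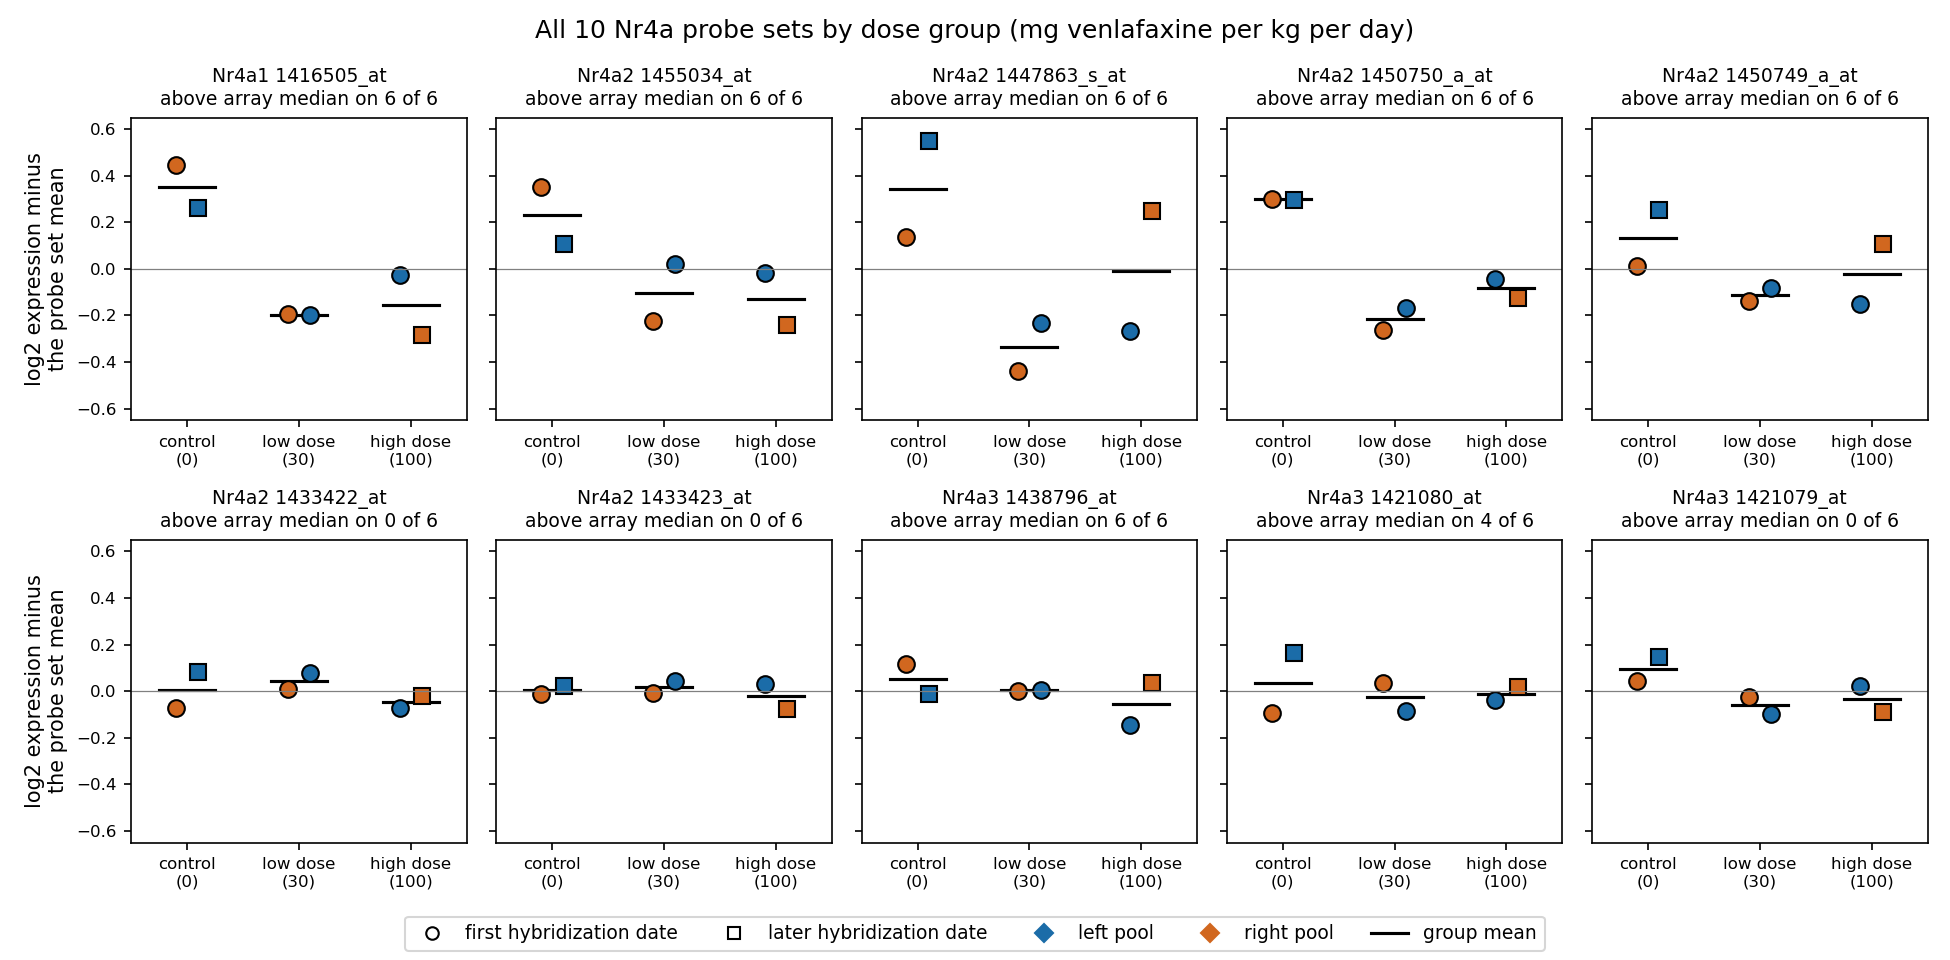
Log2 expression of all 10 Nr4a probe sets on the 6 arrays, each minus its own mean, by venlafaxine dose in mg per kg per day; symbols and bars as in the plot of the 3 genes by array. Both controls lie above all 4 treated arrays for Nr4a1, for Nr4a2 probe sets 1455034_at and 1450750_a_at and for the dim Nr4a3 probe set 1421079_at, and in 1447863_s_at and 1450749_a_at the later date's arrays (squares) stand highest.

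By date and by side the genes differed as follows. On the later against the first date Nr4a1 differed by -0.26 at the high dose and -0.19 in controls, a log2 difference of -0.22 with dose group as a term (limma adjusted p = 0.130). Nr4a2 differed by -0.22 at the high dose and -0.25 in controls, together -0.23 (limma adjusted p = 0.103). Its probe set 1447863_s_at differed the other way, by 0.52 at the high dose and 0.41 in controls, as did 1450749_a_at by 0.26 and 0.24. Nr4a3 differed by 0.18 at the high dose and -0.13 in controls, together 0.029 (limma adjusted p = 0.923). Over all genes 818 of 11739 (6.97%) passed between the dates. The RNA integrity number (RIN) was 8.7 and 7.9 for control, 9.1 and 8.9 for low dose and 8.5 and 8.2 for high dose RNA, lowest on the later date, and date and RNA quality were not separated. With this number as a covariate Nr4a1 fell at the high dose (-0.52, limma adjusted p = 0.000112) and at the low dose (-0.75, 0.000463).

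No difference between left and right hippocampus passed the threshold in the family. In the control and high dose groups the sides also differ in date, in opposite directions, so the shift between dates adds to the spread of this fit. The left minus right difference was 0.023 for Nr4a1 (95% interval -0.19 to 0.23), 0.075 for Nr4a2 (-0.13 to 0.28) and -0.10 for Nr4a3 (-0.31 to 0.11), each with a limma adjusted p of 1.00. No gene passed (0% of 11739), and 40 had an unadjusted p under 0.05. With the date as a further term 0 passed and 88 had an unadjusted p under 0.05. Nr4a2 differed by 0.25 at the low dose, by 0.22 at the high dose, where the right pool is also the later array, and by -0.25 in controls, where the left pool is. Only the low dose pair shares a date.

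The other activity-induced genes are the nearest relatives of the family in regulation. Of 25 such genes outside the family, 23 were tested. The list was chosen with earlier results of these data known, so its counts are not independent of them. At the high dose 1 fell (0.00852% of all tested genes passed), and the median log2 fold change was -0.27 against -0.030 over all tested genes. At the low dose 4 fell (0.0426% of all tested genes passed), with a median of -0.19 against 0.038. No gene outside the list fell in these 2 comparisons with dose group alone. For 16 of the 23, both controls lay above all 4 treated arrays (background 4.39%), and their mean log2 level was 9.67 to 9.73 on the low dose arrays and 9.66 to 9.68 on the high dose arrays, against 9.92 to 9.98 on the control arrays. The change of Nr4a1 lay between that of Egr1 (-0.54) and that of Arc (-0.50) at the high dose, where Fos, a subunit of AP-1, had -0.59. At the low dose Egr2 fell by 0.93, Egr1, a zinc finger factor, by 0.67, Arc, a protein of active synapses, by 0.65 and Fos by 0.61 (limma adjusted p = 0.00039, 0.0137, 0.0137 and 0.0191). Nr4a3 had -0.11 and -0.049 at the high and low dose, and Jun, the partner of Fos, 0.030 and 0.11.

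**Figure D4:**
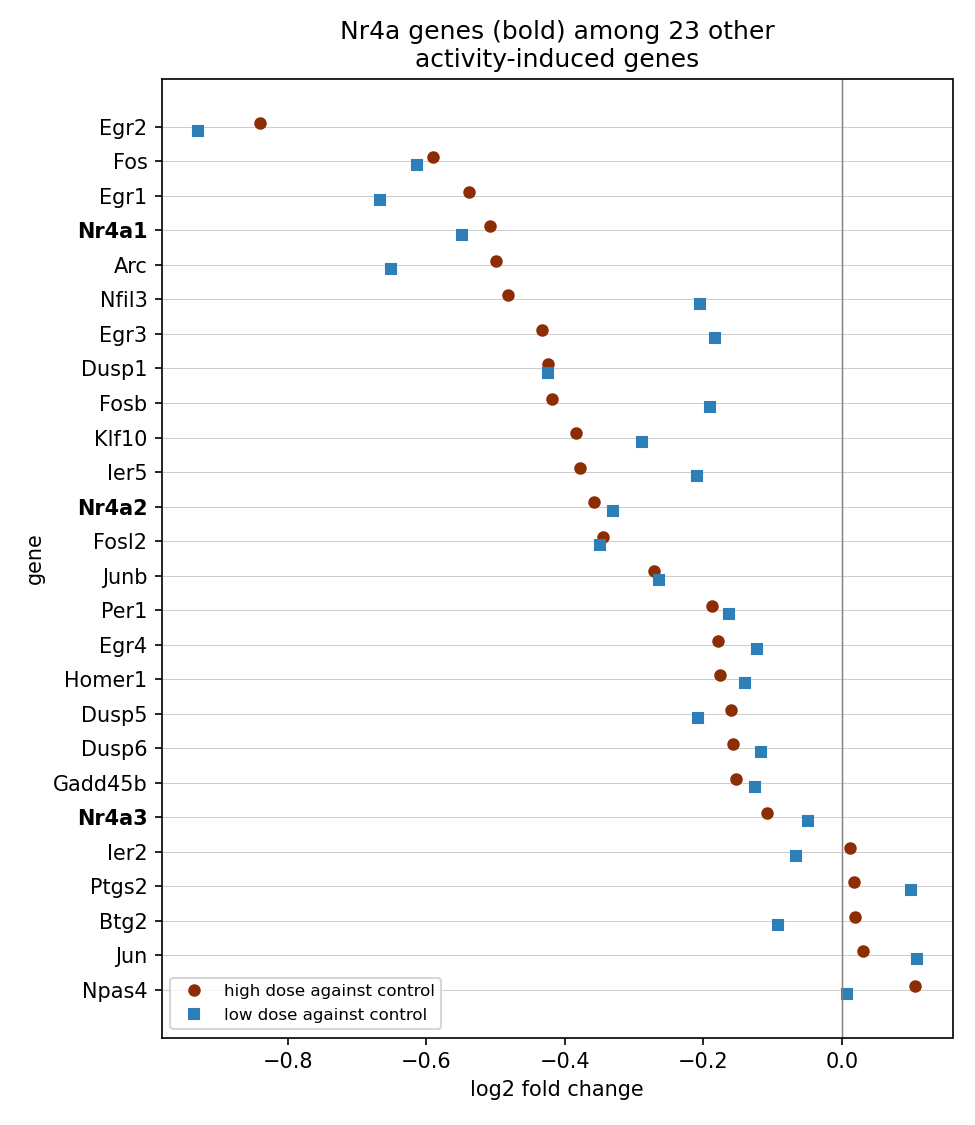
Log2 fold changes of the 3 Nr4a genes (bold) and of 23 other activity-induced genes, at the high dose (brown circles) and at the low dose (blue squares) against the same control arrays, ordered by the high dose. Egr2 is farthest from 0 (-0.84 and -0.93), Nr4a1 (-0.51 and -0.55) lies between Egr1 and Arc at the high dose, and Nr4a3 (-0.11 and -0.049) is among the genes near 0.

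Genes acting upstream of and beside the receptors were measured as well. The retinoid X receptor genes Rxra, Rxrb and Rxrg, which encode dimer partners, had log2 fold changes of -0.096, -0.061 and -0.0088 at the high dose and 0.046, 0.029 and 0.015 at the low dose, and 0 of 3 passed. Of 18 genes for CREB, its coactivators, MEF2, serum response factor and their kinases and deacetylases, 17 were tested and 0 passed at either dose. Their median was -0.12 at the high dose (16 of 17 with lower means) and 0.059 at the low dose (10 with higher means), against -0.030 and 0.038 over all genes. Mef2c, a MEF2 factor of excitatory neurons, had -0.22 and -0.26 at the high and low dose, and Prkacb, a catalytic subunit of protein kinase A, had -0.20 at the high dose. Mef2c was 1 of 2 among the 17 with both controls above all treated arrays, against 4.39% of all tested genes.

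Among genes reported to depend on the family, endoplasmic reticulum chaperones have been tied to Nr4a function in the mouse hippocampus. All 14 tested had lower means at the high dose and higher means at the low dose, with medians of -0.13 and 0.082 against -0.030 and 0.038 over all genes, and 0 passed in either. Their mean log2 level was 11.28 and 11.47 on the low dose arrays, 11.32 and 11.24 on the control arrays and 11.14 on each high dose array. Low dose replicate 1 thus lay between the controls, and the higher low dose level of the list rests on replicate 2. Hspa5, the main chaperone of that compartment, had -0.22 at the high dose and Creld2 -0.26. Between the doses their median was -0.24 for high over low, against -0.066 over all genes, and 0 of 14 passed. Of 8 dopamine neuron genes that Nr4a2 controls in the midbrain, 3 were tested and 0 passed. Ddc, the enzyme that makes dopamine from its precursor, had 0.12 at the high dose and 0.20 at the low dose, and the gene of tyrosine hydroxylase, Th, was too dim to be tested.

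Nr4a2 also marks cells of the claustrum, the subiculum and deep layers of neocortex. The hippocampal subfield markers were present, with 12 of 12 tested, and 0 of the 91 tested markers in 12 lists of cell types and tissues passed in any comparison between dose groups. Over all tested genes 0.00852% passed at the high dose, 0.0426% at the low dose and 0% between the doses. With so few calls, that count says little about tissue content. The mean log2 level of the 9 neocortex markers tested, of 11 listed, was 10.05 to 10.29 on the low dose arrays and 10.11 to 10.12 on the high dose arrays, against 10.31 to 10.37 on the control arrays. That of the 7 claustrum and subiculum markers tested, of 9 listed, was 9.36 to 9.39 on the low dose and 9.27 to 9.32 on the high dose arrays, against 9.41 to 9.55 on the control arrays. Both lists were thus highest on the controls, as Nr4a1 and Nr4a2 were, and their part in those values was not tested. By member, 2 of the 9 neocortex markers and 1 of the 7 others, Nts, had both controls above all treated arrays, against 4.39% of all tested genes. So did 1 of 7 striatum markers. Both controls lay below all treated arrays for 2 of 12 hippocampal subfield, 2 of 9 meninges and fibroblast, 1 of 11 choroid plexus and 1 of 2 red blood cell markers. The share of all tested genes in this reverse order was not computed, so these counts have no background. Choroid plexus markers went the other way in the means, with 11 of 11 higher at each dose and medians of 0.22 at the high and 0.29 at the low dose, but their array means overlapped, from 9.40 to 9.84 on treated and 9.28 to 9.55 on control arrays. Cell types outside neurons in which Nr4a1 is also known had medians of 0.00080 and 0.036 at the high and low dose (7 microglia and monocyte markers) and of 0.032 and 0.044 (6 endothelial markers).

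**Figure D5:**
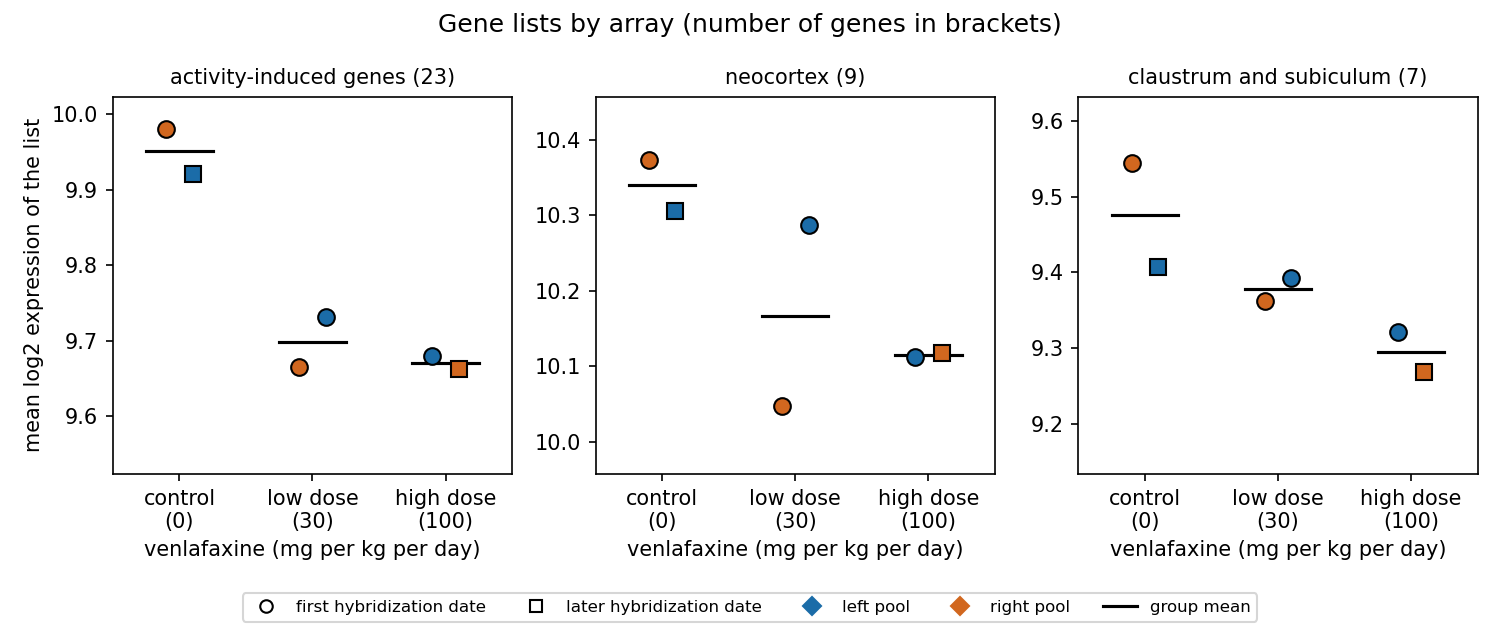
Mean log2 expression of 23 activity-induced genes, 9 neocortex markers and 7 claustrum and subiculum markers on each of the 6 arrays, by venlafaxine dose; symbols and bars as in the plot of the 3 genes by array. Each list is highest on the 2 control arrays, by the widest gap for the activity-induced genes (9.92 to 9.98 against 9.66 to 9.73).

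Across the 6 arrays Nr4a1 and Nr4a2 had a Pearson correlation of 0.909, while Nr4a3 had 0.330 with Nr4a1 and 0.349 with Nr4a2; the points share dose, date and RNA quality. The 5 tested genes most like each member over the 6 arrays were taken as a description. For Nr4a1 they were A2ml1 (0.985), Junb (0.980), Klf5 (0.977), Katna1 (0.964) and Arc (0.963), of which Junb and Arc are activity-induced. For Nr4a2 they were Ppwd1 (0.990), Tmem170, Etl4, Osbpl10 and Dctd (0.981), none of them on the activity list. For Nr4a3 they were Zbtb4 (0.992), Tnks, Map9, Vmac and Jak1 (0.986), and all 5 spanned between 0.22 and 0.36 over the 6 arrays, a range like the 0.26 of Nr4a3 itself. With 6 arrays and 11739 genes, correlations of this size occur for many genes.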

How the data were processed

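Hippocampal RNA pools of 3 dose groups gave 6 Affymetrix arrays with 45101 probe sets. The deposited table holds log2 values, a scale inferred from their range; the authors made them with RMA in R 3.0.1, per the submitters' processing notes, and the settings of RMA were not given in the sources used here. Each group has 2 arrays, which limits the precision of every value. Probe sets were named from the platform annotation where it gives exactly 1 symbol (34945 probe sets), updated by Entrez identifier from RefSeq. The probe set with the highest mean stood for each of 18193 genes, and a gene entered the tests if it exceeded the median of the array on 2 or more arrays (11739 genes).

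Comparisons used limma 3.58.1 in R 4.3.3 on all 6 arrays (lmFit, eBayes, two-sided, Benjamini-Hochberg adjustment over all tested genes, threshold 0.05), with 1 coefficient per dose group; date and side fits added that term. With a block, a covariate, the first date only or most left-out arrays limma's prior degrees of freedom were infinite, so that all genes shared 1 spread. They were also infinite with the trend and robust prior. Fits were tested on simulated data. Replicate 2 minus replicate 1 over the tested genes correlated at 0.540 between high dose and control, whose numbers equal the hybridization date in the labels, at 0.0770 between low dose and control and at 0.133 between high and low dose. No 2 arrays held identical values. The genes, lists and tests were chosen with earlier results of these data known. Genes named beside the members are the 5 most alike, up to 4 list members with the largest moderated statistic, and those past the threshold where at most 5; others were named after their values were seen. Protein sequences were not used here.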

Additional observations from a re-analysis of the deposited data

Results flagged for a closer look

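Some differences had opposite signs in the 2 dates or the 2 sides; each rests on 1 array against 1, and whether they differ was not tested. For Nr4a3, high dose minus control was 0.047 on the later date and -0.26 on the first date. For the same gene, low dose minus control was 0.015 in left pools and -0.11 in right pools, and high minus low dose was -0.15 in left pools and 0.035 in right pools. For Nr4a1, high minus low dose was 0.17 in left pools and -0.090 in right pools. All were smaller than the difference of -0.53 between treated and control arrays for Nr4a1.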

How the results depend on the processing

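In every fit tried Nr4a1 and Nr4a2 had lower means at both doses than in controls, while the calls depended on the setting. Nr4a2 probe sets 1433422_at and 1433423_at, too dim to be tested, had means of 7.754 and 7.535 at the low dose. These were slightly above their control means of 7.715 and 7.519. At the high dose Nr4a1 passed with the date as a replicate block (-0.51, adjusted p = 7.17e-05), the replicate number as block (-0.51, 0.00783), side and date as terms (-0.51, 0.00696), RIN (-0.52, 0.000112) and a trend and robust prior (-0.51, 0.0242), and Nr4a2 with the date block (-0.36, 0.0336) and RIN (-0.37, 0.0385). At the low dose Nr4a1 passed with the date block (-0.66, limma adjusted p = 4.85e-07), the replicate number (-0.55, 0.000505), side (-0.55, 0.0215), side and date (-0.66, 0.000218), RIN (-0.75, 0.000463) and the trend and robust prior (-0.55, 0.00857), and Nr4a2 with the date block (-0.45, 0.0138). The first date alone holds 1 control array, so only sizes are given for it and not whether a gene passed. There the low dose fold changes were -0.64 for Nr4a1 and -0.45 for Nr4a2. Wherever either gene passed, limma's prior degrees of freedom were infinite, so these passes share that setting. With no filter, the stricter filter, averaged probe sets, quantile normalization or centring, neither passed at either dose. With every probe set tested, and the date as replicate block, values at the high dose were -0.51 for Nr4a1 and -0.35, -0.38 and -0.36 for Nr4a2 probe sets 1447863_s_at, 1450750_a_at and 1455034_at, and at the low dose -0.66, -0.45, -0.54 and -0.45; Nr4a3 probe set 1421080_at had 0.017 at the low dose.

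Between the doses the sign of Nr4a2 (-0.026) turned with the date as replicate block (0.091), side and date (0.091), RIN (0.15), the mean of probe sets (0.065), quantile normalization (0.064), the first date only (0.085), and in probe sets 1447863_s_at (0.33, or 0.093 with the block), 1450749_a_at (0.0895) and 1450750_a_at (0.13, or 0.15 with the block) and in 1455034_at with the block (0.091). That of Nr4a3 turned after quantile normalization (0.029) and in 1421080_at (0.014). Between the dates Nr4a2 turned to 0.084 with the mean of probe sets. The cause was not tested.

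Leaving out 1 array leaves a group with a lone array, assumed to vary like the other groups, and gave, for high dose against control, -0.64 to -0.38 for Nr4a1, -0.48 to -0.23 for Nr4a2 and -0.20 to -0.016 for Nr4a3; for low dose against control -0.64 to -0.46, -0.45 to -0.21 and -0.11 to 0.014; for high against low dose -0.089 to 0.17, -0.15 to 0.097 and -0.15 to 0.033; between dates -0.26 to -0.19, -0.25 to -0.22 and -0.13 to 0.18; between sides -0.094 to 0.13, -0.011 to 0.24 and -0.15 to -0.061, in the order Nr4a1, Nr4a2, Nr4a3. Treated against control arrays ranged from -0.62 to -0.44, -0.47 to -0.22 and -0.14 to -0.016, with no reversal.

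The counts of genes past the threshold moved widely. For high dose against control (1), low dose against control (5) and high against low dose (0) they were 44, 21 and 3 with the date block, 10, 32 and 45 with the replicate number, 3, 17 and 11 with side, 10, 9 and 1 with side and date, 39, 20 and 4 with RIN, 14, 17 and 25 with the trend and robust prior, 14, 18 and 9 on the first date and 122, 48 and 9 over all probe sets with the date block. They were 0 and 0 in the first 2 comparisons with no filter, with the mean of probe sets, with every probe set and after quantile normalization, and 2 in the first with the stricter filter. Without 1 array they ran from 0 to 178, 0 to 546 and 0 to 151. Between dates (818) the count was 352 with side, 517 with the mean of probe sets and 154 to 764 without 1 array, and between sides (0) it was 0 to 2 without 1 array.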

Other observations

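Other nuclear receptor genes were described as a group apart from the family. Of 32 such genes, 22 were tested and 0 passed between any dose groups, with medians of -0.061 at the high dose and 0.044 at the low dose against -0.030 and 0.038 over all tested genes. Of the 22, 1 had both control arrays below the 4 treated ones, and 2 had them above (4.39% of all tested genes), namely Nr2f2 and the progesterone receptor gene Pgr, which had -0.19 and -0.18 at the high dose; Pgr had -0.22 at the low dose. The thyroid hormone receptor gene Thra had 0.17 at the low dose, and the mineralocorticoid receptor gene Nr3c2 had 0.13. Among marker lists not described above, 7 striatum markers had a median of -0.32 at the high dose and -0.093 at the low dose, with 0 past the threshold, and 7 oligodendrocyte markers had -0.052 and 0.32. The 9 meninges and fibroblast markers had medians of 0.19 at the high dose (9 of 9 with higher means) and 0.14 at the low dose (8 of 9), and 2 of them had both controls below all treated arrays. The 12 hippocampal subfield markers had medians of 0.043 at the high dose (9 of 12 with higher means) and 0.16 at the low dose (10 of 12), and 2 of them too had both controls below all treated arrays. In these lists too 0 passed between dose groups. The share of all tested genes with both controls below all treated arrays was not computed, so those counts have no background.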
